A study of Mus musculus with 6 samples.

Results

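Wells that carried insulin and somatostatin transcripts together, called joined wells here, numbered 175 of the 2115 mouse islet wells kept for analysis. A well was counted as joined when Ins1 and Ins2 together made up at least 3.3% of its unique molecular identifiers (UMIs, tags that count captured transcripts), Sst at least 0.73% and Gcg less than 2.3%. The wells were chosen by these hormone shares, which are therefore given as a description and were not tested. Wells over the insulin threshold alone (1000 insulin-only wells) and over the somatostatin threshold alone (540 somatostatin-only wells), with the same limit on Gcg, served for comparison. The counts do not tell a well that held a beta and a delta cell from a well with 1 cell that carried both hormone transcripts, or from a well with free RNA of the other cell type.

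The mice were males of the strain Sox9-CreER; tdTomato, in which the tamoxifen-dependent Cre is driven by Sox9, a gene of pancreatic duct and progenitor cells, and tdTomato marks cells descended from those that had active Cre. All of them received tamoxifen (8 mg) from 10 weeks of age for 2 weeks, had a partial pancreatectomy (ppx), which removes part of the pancreas, or a sham operation at 12 weeks, and gave islets 4 weeks later. Dissociated islet cells were sorted into 384-well plates and profiled by MARS-seq, which counts the 3′ ends of transcripts. Each operation had 3 plates: ppx 1 was sorted as tomato-positive and ppx 2 and 3 as tomato-negative, while sham 1 was tomato-positive, sham 2 mixed with 4 positive rows, and sham 3 tomato-negative. The plate was the replicate in every test. The labels do not tie plates to animals, so p-values cover the spread between plates, which may be technical.

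Beta cells make insulin and release it when glucose rises, and mature ones carry Mafa, Ucn3, Slc2a2 and G6pc2. Delta cells make somatostatin, which restrains neighbouring beta and alpha cells through somatostatin receptors. Delta cells have long processes that touch beta cells. Whether such cells stayed attached when the islets were dissociated was not tested.

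Joined wells came mostly from the tomato-positive plates, which held 133 of them, against 25 on the mixed plate and 17 on the negative plates. Somatostatin-only wells also lay mostly on the positive plates, with 436, 64 and 40 in the same order, while insulin-only wells numbered 44, 177 and 779. The ppx plates held 77, 6 and 5 joined wells and the sham plates 56, 25 and 6. No well identifier was shared between plates (0 of 2304). Plates held 1250861 to 1508513 UMIs in all. Among joined wells the depth ran from 646 to 21179 UMIs with a median of 6091, against medians of 4250.5 in insulin-only and 1582.5 in somatostatin-only wells. Set against the sum of both single-class medians on its own plate, the median joined well held 111%, 82.1% and 79.5% of that depth on ppx plates and 85.6%, 94.2% and 82.1% on sham plates. The mitochondrial share had a median of 9.42% in joined, 9.16% in insulin-only and 11.9% in somatostatin-only wells. After each well was thinned to 1000 UMIs, a joined well showed 518 ± 24.3 genes, against 507 ± 36.0 in insulin-only wells (SD over plate medians, n = 6 plates). The difference of 10.7 genes was within the spread between plates (exact two-sided sign-flip p = 0.406, higher on 3 of 6 plates, smallest possible p 0.03125). At 500 UMIs the difference was 10.1 genes, higher on 5 of 6 plates (SD 8.03, exact sign-flip p = 0.0625), and with plate means at 1000 UMIs it was 12.5 genes, also on 5 of 6 (exact sign-flip p = 0.156).

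The hormone genes sit on separate chromosomes of the GRCm38 assembly: Ins1 at chr19:52264297-52265476, Ins2 at chr7:142678656-142743381 and Sst at chr16:23889573-23890958. The 250 bases before the RefSeq start of Ins1 and of Sst are shown because these genes define the wells. They come from RefSeq on GRCm38.p6, for Ins1 at chr19:52264047-52264296 on the plus strand and for Sst at chr16:23890845-23891094 on the minus strand. Capitals mark matches, on either strand, to the E box GCCATCTG, which NeuroD1 binds in rat insulin genes, and to the cAMP response element TGACGTCA, which CREB binds in the rat Sst promoter.
Ins1: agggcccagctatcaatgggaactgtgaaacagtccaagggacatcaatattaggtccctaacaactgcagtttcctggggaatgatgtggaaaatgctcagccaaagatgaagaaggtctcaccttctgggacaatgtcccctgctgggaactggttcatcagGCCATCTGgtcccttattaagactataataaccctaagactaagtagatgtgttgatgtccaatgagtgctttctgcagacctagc
Sst: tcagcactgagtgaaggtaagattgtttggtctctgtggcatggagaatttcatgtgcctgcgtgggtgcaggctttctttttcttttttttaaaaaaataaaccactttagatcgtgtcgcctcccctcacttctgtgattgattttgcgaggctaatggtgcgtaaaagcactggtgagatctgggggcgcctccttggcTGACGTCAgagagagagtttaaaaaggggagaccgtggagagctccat
The E box began at -86 from the RefSeq start of Ins1 and the cAMP response element at -48 from that of Sst. The gene spans above are from GENCODE, which starts Sst further upstream, at chr16:23890958. Part of the printed Sst window, with the cAMP response element, thus lies inside the GENCODE span of Sst. Of 32851 promoter windows of this length, 1.11% held the E box and 1.55% the cAMP response element. A match describes the letters and not binding.

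Joined wells kept most of the insulin share of insulin-only wells but a smaller part of the somatostatin share of somatostatin-only wells. Median insulin was 25.5%, 9.56% and 11% of UMIs in joined wells of the ppx plates and 19.8%, 14.5% and 17.3% on the sham plates. The insulin-only medians were 31.1%, 15.8% and 14.9% on ppx plates and 26.1%, 22.8% and 25.3% on sham plates. Joined wells thus stood at 81.9%, 60.5% and 74.1% of the insulin-only median on ppx plates and at 75.9%, 63.7% and 68.4% on sham plates. The somatostatin side differed with the sort: median Sst was 1.85% and 1.86% in joined wells of the tomato-positive plates ppx 1 and sham 1, and 4.07% to 7.29% on the other plates. In somatostatin-only wells it was 7.77% and 7.70% on the positive plates and 13.4% to 20.3% on the others. Relative to that median, joined wells stood at 23.7%, 39.4% and 22.1% on ppx plates and at 24.1%, 30.3% and 23.4% on sham plates, so the lower level of the positive plates was shared by both classes.

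The level of the other hormone in single wells gives the background. Sst had a median of 0.149%, 0.0218% and 0.0187% in insulin-only wells of ppx plates and of 0.146%, 0.0660% and 0.0299% on sham plates. Insulin had a median of 0.754%, 0.477% and 0.283% in somatostatin-only wells of ppx plates and of 0.404%, 0.655% and 0.673% on sham plates. The class definitions keep these values under the thresholds. Among plates, the Sst level of insulin-only wells was highest on the 2 tomato-positive ones. At the edges, the lowest joined well had 3.56% insulin and the next well below the threshold 3.15%, and for Sst the values were 0.732% and 0.720%. Of the joined wells, 38 had under 2 times the Sst threshold and 6 under 2 times the insulin threshold. Gcg reached 1.99% in the joined well nearest its limit, and 8 further wells passed the thresholds of all 3 hormones and were left out.

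**Figure D1:**
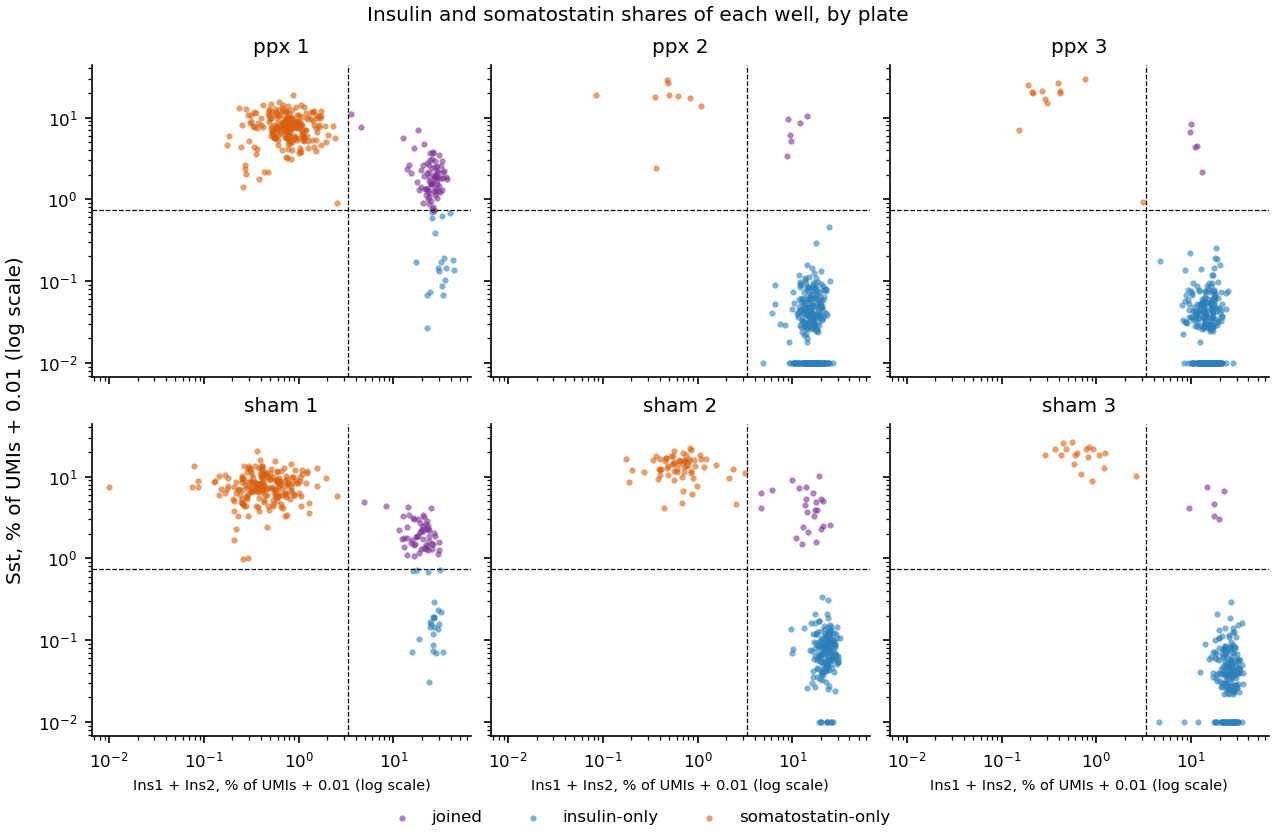
Each point is a well, with the summed Ins1 and Ins2 share on the x axis and the Sst share on the y axis (percent of UMIs plus 0.01, log scales), 1 panel a plate; dashed lines are the thresholds. The joined wells of ppx 1 and sham 1 have median Sst shares of 1.85% and 1.86%, nearer to the Sst threshold than those of ppx 2 at 7.29%.

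Mice have a pair of insulin genes, and their balance differed far more between plates than between classes. Ins1 made up a median of 37.3%, 64.9% and 85.0% of insulin UMIs in joined wells of ppx plates and 55.6%, 45.7% and 60.0% on sham plates. Insulin-only wells had 39.0%, 69.8% and 84.7% on ppx plates and 56.3%, 46.0% and 58.4% on sham plates. Joined wells followed the insulin-only wells of their own plate, with a mean difference of -0.948 percentage points (SD 2.22, n = 6 plates, exact two-sided sign-flip p = 0.375, higher on 2 of 6 plates). Ins1 and Ins2 transcripts share a run of up to 56 bases, so the split of reads between them may be uncertain. Whether this run lies in the counted 3′ ends was not examined.

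The share of beta cell RNA in each well was estimated without hormone or mitochondrial genes. Each well was fitted as a mixture of the mean insulin-only and the mean somatostatin-only profile of the other plates, and the weight of the first is called the beta fraction. Joined wells had a median beta fraction of 0.76, 0.6175 and 0.705 on ppx plates and of 0.735, 0.68 and 0.68 on sham plates. Insulin-only wells had medians of 0.9225, 1 and 1 on ppx plates and 0.9775, 1 and 1 on sham plates. Somatostatin-only wells had medians of 0.1725, 0.115 and 0.16 on ppx plates and 0.205, 0.21 and 0.115 on sham plates, so the scale does not reach 0 in wells of that class. The joined medians lay between both single classes on every plate, nearer to the insulin-only wells. The fit allows only values from 0 to 1, so a well unlike both profiles would also be placed on this scale.

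Single joined wells ranged from 0.135 to 0.945 around a median of 0.73. Of the 175 wells, 2 lay under 0.25, 8 between 0.25 and 0.5, 86 between 0.5 and 0.75 and 79 at 0.75 or above, and 0 were fitted as a pure profile. Among insulin-only wells 696 of 1000 were fitted at exactly 1. Within the plates that had at least 25 joined wells, the beta fraction ran against the Sst share, with Spearman coefficients of -0.62 on ppx 1 (77 wells), -0.28 on sham 1 (56 wells) and -0.42 on sham 2 (25 wells). These coefficients describe wells of 1 plate that differ in depth, and the beta fraction also ran with the UMI total (0.64, 0.45 and 0.15).

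**Figure D2:**
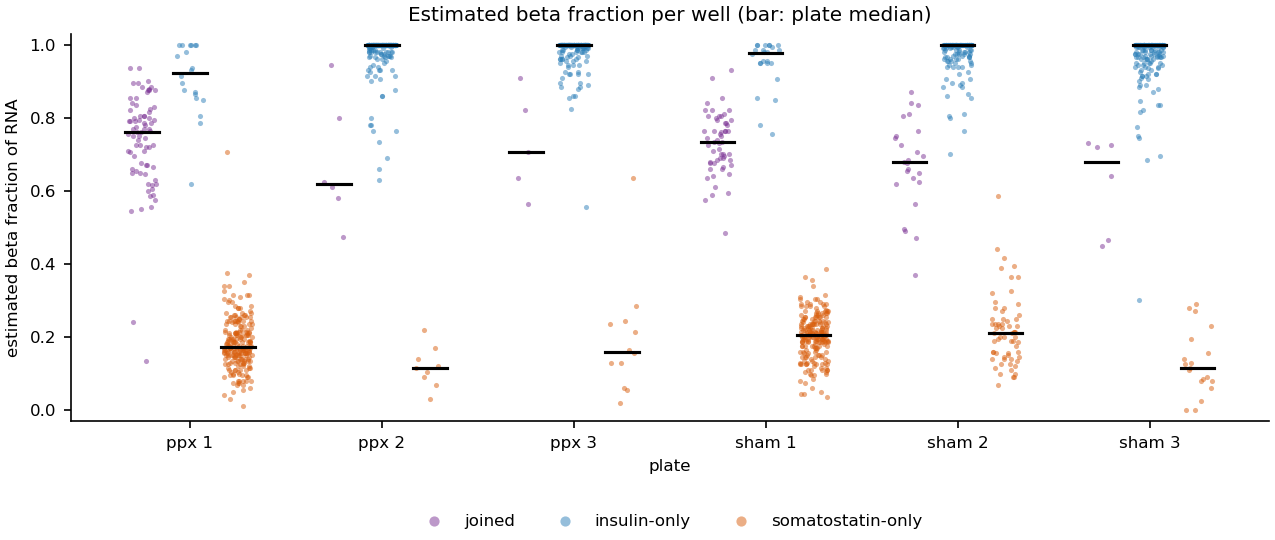
Estimated beta fraction of RNA (y axis, 0 to 1) of every joined, insulin-only and somatostatin-only well on each plate; points are wells, spread sideways for legibility, and bars are plate medians. Joined medians run from 0.6175 to 0.76, between the bars of both single classes on all 6 plates.

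The operation made no detectable difference to the beta fraction, which averaged 0.694 ± 0.0719 on ppx plates and 0.698 ± 0.0318 on sham plates (SD over plate medians, n = 3 each, exact two-sided permutation p = 1, smallest possible p 0.1). The difference of -0.00417 was smaller than the spread between plates. It was 0.025 between the tomato-positive plates (1 plate each) and -0.0188 between the tomato-negative plates (2 against 1). Tomato-positive plates averaged 0.748 ± 0.0177 and tomato-negative plates 0.668 ± 0.0451 (n = 2 and 3, difference 0.08, exact permutation p = 0.2). With beta and delta marker genes alone that difference was -0.0208, so its direction depends on the genes used.

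Non-hormone markers of both cell types were present in joined wells. At 1000 UMIs a well, 96.6% of joined wells had at least 1 UMI of a beta marker and 91.4% of a delta marker, against 100% and 58.9% of insulin-only wells and 39.0% and 99.4% of somatostatin-only wells. The delta share in insulin-only wells is the background for that list at this depth, and it differed between plates. On the tomato-positive plates 92.1% (ppx 1) and 89.3% (sham 1) of joined wells had a delta marker, against 85% and 66.7% of insulin-only wells. On the other plates the shares were 88% to 100% in joined and 51.0% to 62.7% in insulin-only wells. Of the non-endocrine lists, the duct markers had the highest sums, at 837 to 1035 CPM (UMIs of the summed wells of a plate, scaled to the same total of 1000000) in joined wells, 635 to 803 CPM in insulin-only and 1312 to 1819 CPM in somatostatin-only wells. The macrophage markers summed to 29.0 to 93.0 CPM in joined, 28.1 to 88.7 CPM in insulin-only and 0 to 137 CPM in somatostatin-only wells. In joined wells the endothelial markers summed to 0 to 51.3 CPM, the stromal to 0 to 25.6 CPM and the lymphocyte to 0 to 7.24 CPM, and the erythroid markers were at 0 on all 6 plates. The acinar markers, which encode digestive enzymes, summed to 25.6 to 248 CPM in joined wells, to 0 to 72.4 CPM in insulin-only and to 110.0 to 477 CPM in somatostatin-only wells. The pancreatic polypeptide list summed to 17954 to 60390 CPM in joined, 1151 to 7507 CPM in insulin-only and 42900 to 155530 CPM in somatostatin-only wells.

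Against insulin-only wells of the same plate, joined wells carried more transcripts of delta genes and less of beta maturity genes. Of 5377 genes tested outside the hormones that chose the wells, 98 (1.82%) had an adjusted p under 0.05 in edgeR's quasi-likelihood test with Benjamini-Hochberg adjustment. Higher were 56 (1.04%) and lower 42 (0.781%), and 336 (6.25%) moved the same way on all 6 plates. The delta list had 8 tested members outside the rule, of which 4 rose (Rbp4, Hhex, Arg1 and Efnb3) and 4 did not pass, with a median log2 fold change of 1.89 beside -0.05 over all genes. The beta list had 11, of which 9 fell and 2 did not pass, with a median of -0.71.

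Rbp4, a retinol carrier and delta cell marker in mice, had 1139, 1737 and 1235 CPM in joined wells of ppx plates and 1361, 1796 and 1230.4 CPM on sham plates. In insulin-only wells it had 471, 17.2 and 8.91 CPM on ppx plates and 352, 45 and 25 CPM on sham plates. Joined wells were higher on all 6 plates without overlap, and the log2 difference was 4.14 ± 0.16 (SE from the edgeR fit, n = 6 plates). This SE, like those of the other edgeR differences, is not the spread of the plate differences, which was wider for Rbp4. The insulin-only background of Rbp4 was highest on the 2 tomato-positive plates, and there the log2 difference was 1.58. Hhex, a transcription factor that keeps delta cell identity, had 95.8, 124 and 165 CPM in joined wells of ppx plates and 92.3, 86.9 and 179 CPM on sham plates. Its insulin-only values were 45.3, 0 and 0.81 CPM on ppx plates and 14.1, 3.55 and 2.09 CPM on sham plates. The fitted difference was 4.54 ± 0.53. With the tomato-positive plates alone it was 1.69 (edgeR adjusted p = 0.207).

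Several genes outside the delta list also rose, together with its members Arg1 and Efnb3. Pyy, which encodes peptide YY, had 7191 to 14158 CPM in joined and 245 to 1723 CPM in insulin-only wells, a log2 difference of 3.46 ± 0.15. Ppy, the pancreatic polypeptide gene, differed by 2.297 ± 0.16, the surface protein gene Cd24a by 3.57 ± 0.26 and Arg1, which encodes arginase, by 2.89 ± 0.44. Efnb3, a membrane-bound ephrin ligand, differed by 4.28 ± 0.78 and was higher on 4 of 6 plates, being at 0 in the joined wells of ppx 3 and sham 3. Basp1 (3.88 ± 0.60), Ehf (4.01 ± 0.65), an epithelial transcription factor, Fam159b (2.43 ± 0.22), Plekhb1 (2.36 ± 0.44) and Tspan8 (1.81 ± 0.31) were higher on all 6 plates. So was Cela1 (3.53 ± 0.58), which encodes a pancreatic digestive enzyme, beside the acinar sums above, whose part in this result was not tested. Pdyn, the prodynorphin gene counted here among delta markers, did not pass (0.17 ± 0.20, adjusted p = 0.877, higher on 3 of 6 plates).

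The beta maturity list overlaps the beta markers and had 25 tested members, of which 8 fell, 0 rose and 17 did not pass, with a median of -0.36. Mafa, a transcription factor of mature beta cells, had 396, 620.3 and 412 CPM in joined wells of ppx plates and 494, 419.9 and 333 CPM on sham plates. In insulin-only wells it had 625, 848 and 815 CPM on ppx plates and 738, 843 and 892 CPM on sham plates. Joined wells were lower on all 6 plates, with no overlap between the classes, and the log2 difference was -0.90 ± 0.14 (adjusted p = 1.08e-07). Ucn3, the peptide by which beta cells call on delta cells, had 421, 310.1 and 699.7 CPM in joined wells of ppx plates and 456, 391 and 282 CPM on sham plates. The insulin-only wells had 643, 859.8 and 865 CPM on ppx plates and 513, 805 and 947 CPM on sham plates. The difference was -0.88 ± 0.14 (adjusted p = 3.06e-07), lower on all 6 plates though the classes overlap across plates.

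G6pc2, a glucose-6-phosphatase subunit of beta cells, had 2407, 2481 and 1769.8 CPM in joined wells of ppx plates and 1937, 1477 and 1359 CPM on sham plates. The insulin-only values were 2707, 4316 and 3844 CPM on ppx plates and 2729, 3385 and 3393 CPM on sham plates. The difference was -0.95 ± 0.14 (adjusted p = 5.42e-09), lower on all 6 plates with no overlap between the classes. Nkx6-1 (-0.74 ± 0.15), a beta cell transcription factor, the glucose transporter Slc2a2 (-0.65 ± 0.15), the zinc transporter Slc30a8 (-0.69 ± 0.14), the granule protein gene Sytl4 (-0.77 ± 0.22) and Ero1lb (-0.71 ± 0.14), an oxidase of the endoplasmic reticulum (ER) that serves insulin folding, also fell. Iapp, the islet amyloid polypeptide gene, fell by 0.48 on the log2 scale (SE 0.13). With the tomato-positive plates alone, 0 genes passed as lower and 11 as higher, and Mafa stood at -0.65 (edgeR adjusted p = 0.0565) and G6pc2 at -0.37 (adjusted p = 0.397). Without both tomato-positive plates 109 genes passed, 39 higher and 70 lower, so the larger direction turned from higher to lower.

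**Figure D3:**
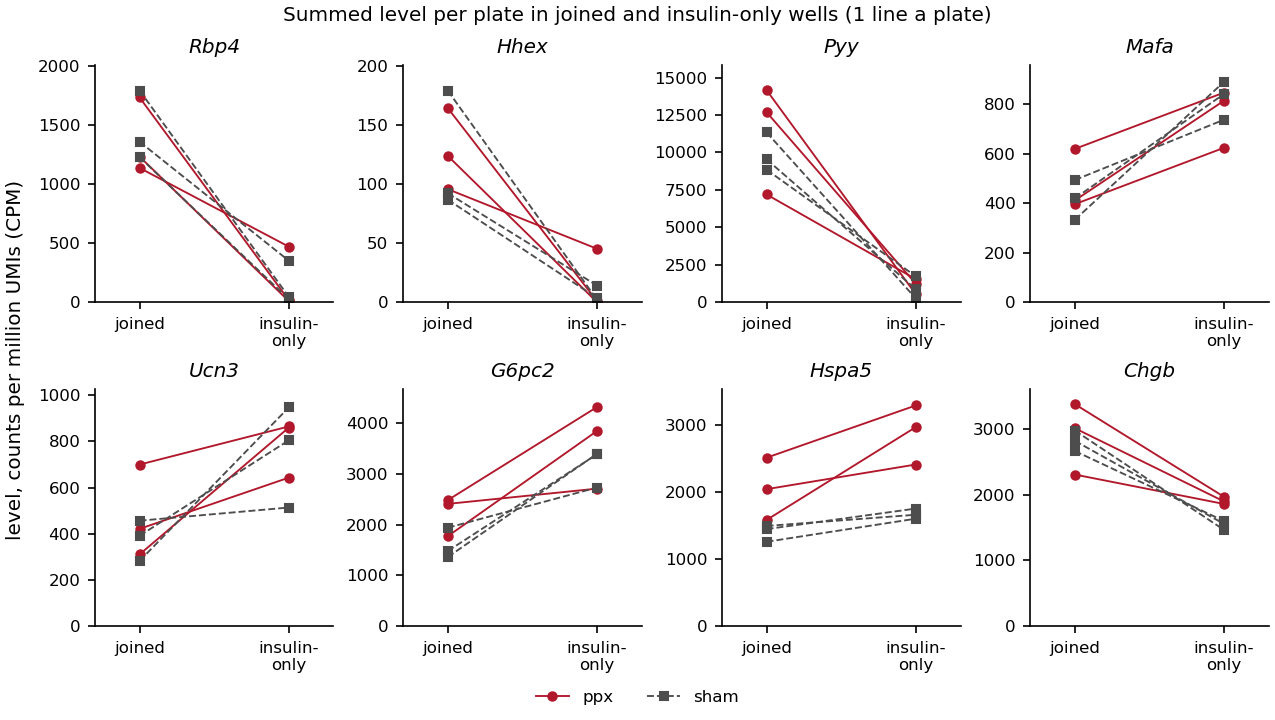
Level in CPM (y axis, linear from 0) of 8 genes in joined and insulin-only wells summed per plate; each line joins the 2 classes of 1 plate, ppx in red with circles and sham in grey with squares. Rbp4, Hhex, Pyy and Chgb are higher in joined wells on all 6 plates and Mafa, Ucn3, G6pc2 and Hspa5 lower.

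Of 29 tested ER stress genes, 2 fell, 0 rose and 27 did not pass beside insulin-only wells. Only 4 of the 29 had a positive log2 difference, and the median was -0.31 beside -0.05 over all genes and -0.36 for the maturity list. Hspa5, which encodes the main ER chaperone BiP, had 2041, 1582 and 2511 CPM in joined wells of ppx plates and 1445, 1492 and 1256 CPM on sham plates. Insulin-only wells had 2409, 2967 and 3290.1 CPM on ppx plates and 1751, 1659 and 1600.1 CPM on sham plates. It was lower on all 6 plates by -0.50 ± 0.14 (adjusted p = 0.0215). Atf4, a transcription factor of the integrated stress response, was lower by -0.51 ± 0.15 (adjusted p = 0.0323). Without ppx replicate 2 neither passed (-0.38 for Hspa5 and -0.50 for Atf4).

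Of 15 oxidative and metal stress genes, Gpx3, a secreted glutathione peroxidase, rose (1.99 ± 0.16), the metallothioneins Mt1 (-0.53 ± 0.14) and Mt2 (-0.74 ± 0.16) fell, and 12 did not pass. Of 24 immediate early and dissociation genes, Hspb1, a small heat shock protein gene, rose (1.94 ± 0.56, adjusted p = 0.0316) and 23 did not pass. Hspb1 had 16.9, 93.0 and 206 CPM in joined wells of ppx plates and 29.9, 101 and 25.6 CPM on sham plates, against 36.2, 13.9 and 8.91 CPM and 28.1, 14.2 and 8.34 CPM in insulin-only wells. It was thus lower on ppx 1 and near equal on sham 1, it rests on 43 UMIs in all joined wells, and it did not pass by DESeq2 (adjusted p = 0.237) or without ppx replicate 2 (0.116), ppx replicate 3 (0.444) or sham replicate 2 (0.702). Reads of Hspb1 and of its pseudogene Hsp25-ps1, which also passed, may be split between them. Of 18 secretory granule genes Chgb (0.60 ± 0.14) rose and Chga (-0.45 ± 0.14) fell, both granins. Of 7 genes of immature or disallowed character Rbp4 and the transcription factor Etv1 (1.35 ± 0.33) rose, and Aldh1a3, a retinaldehyde dehydrogenase used as a mark of beta cell dedifferentiation, stood at -0.82 ± 0.60 (adjusted p = 0.739). Of 19 cell contact genes Efnb3 alone passed, of 6 proliferation genes 0 passed, and of 5 receptor genes, Sstr3 and Glp1r among them, 0 passed. Outside the lists the muscle-type cytochrome oxidase subunit gene Cox6a2 (-1.05 ± 0.20), the kinetochore gene Spc25 (-1.08 ± 0.18), the sterol enzyme gene Sqle (-1.11 ± 0.28) and Car10 (-1.22 ± 0.31) were lower on all 6 plates.

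Against somatostatin-only wells, the balance turned round. Of 1521 genes tested, 463 (30.4%) passed, 265 (17.4%) higher and 198 (13%) lower, and 296 (19.5%) moved the same way on all 6 plates. All 11 tested beta markers outside the rule rose, with a median of 4.01. Of 8 delta markers 5 fell, 1 rose and 2 did not pass, with a median of -0.9995 beside 0.0015 over all genes. Mafa was higher by 4.91 ± 0.25, Ucn3 by 4.21 ± 0.23 and Slc2a2 by 4.06 ± 0.24. Rbp4 was lower by -1.51 ± 0.13, Hhex by -1.73 ± 0.17 and Arg1 by -1.70 ± 0.16. Pdyn was the delta marker that rose (1.58 ± 0.24). It had 135, 558 and 206 CPM in joined wells of ppx plates and 272, 195 and 51.3 CPM on sham plates, against 54.5, 0 and 116 CPM and 90.5, 77.7 and 165 CPM in somatostatin-only wells.

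ER stress genes stood higher than in somatostatin-only wells, with 17 of 20 tested rising, 1 falling (Atf3) and a median of 0.98. Immediate early genes stood lower, with 13 of 21 falling and 0 rising, among them Fos (-0.39 ± 0.12) and Egr1 (-0.74 ± 0.12). Of 22 beta maturity genes 15 rose and 4 fell. Of the stress and immaturity genes named beside insulin-only wells, Gpx3 (-1.29 ± 0.12), Hspb1 (-2.05 ± 0.30) and Etv1 (-1.44 ± 0.18) fell here. Mt1 (1.88 ± 0.15) and Mt2 (1.97 ± 0.18) rose. By both fits these genes thus lay between the single classes. Gpx3 is also counted here among alpha markers. Somatostatin-only wells were the shallower class, as the UMI medians above show, and the part of depth in these differences was not tested. The number of genes that pass depends on the plates: it was 170 without ppx replicate 1, 186 without sham replicate 1 and 245 without sham replicate 2, with 519 to 528 genes tested.

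Joined wells lay between both single classes in median beta fraction. They were therefore set against a weighted sum of the insulin-only and somatostatin-only wells of the same plate. The weight was the UMI-weighted beta fraction of the plate, 0.767, 0.726 and 0.753 on ppx plates and 0.741, 0.676 and 0.624 on sham plates. It was fitted on the same joined wells and most of the same genes, so closeness to the sum is partly built in. No gene of 3790 (0%) differed from that sum after adjustment (limma with Benjamini-Hochberg adjustment, n = 6 plates), 150 had an unadjusted p under 0.05, and 134 (3.54%) moved the same way on all 6 plates. The sums leave out hormone genes, so their CPM are higher than those above. Gc, the vitamin D-binding protein gene and an alpha cell marker here, had values below the sum. It had 233, 290.2 and 54.0 CPM in joined wells of ppx plates and 175, 101 and 111 CPM on sham plates. The weighted sum gave 454, 375 and 437 CPM on ppx plates and 256, 250.3 and 276 CPM on sham plates. The log2 ratio was -1.18 ± 0.28, below the sum on all 6 plates, and did not pass (adjusted p = 0.858). Gc did not lie between the single classes. It was lower by -0.91 ± 0.22 than in insulin-only wells (edgeR adjusted p = 0.00445), a call that did not hold in every alternative. Beside somatostatin-only wells it was lower by -0.78 ± 0.21 (edgeR adjusted p = 0.00238).

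Delta genes, which also entered the fit of the weights, were close to the sum. Their log2 ratios were 0.15 ± 0.13 for Rbp4, 0.19 ± 0.22 for Hhex and 0.10 ± 0.20 for Cd24a. Beta maturity genes had values below the sum: -0.40 ± 0.12 for G6pc2, -0.39 ± 0.12 for Mafa and -0.44 ± 0.18 for Ucn3 (limma adjusted p = 0.858 for each). Each was higher than the sum on 1 or 2 of 6 plates. Over the list of 24 tested maturity genes the median was -0.14, and over all genes -0.09. These ratios rest on the estimated weights: with a beta fraction of 0.5 on every plate G6pc2 stood at 0.07, Mafa at 0.10 and Rbp4 at -0.57, while Gc stood at -1.23. Hspa5 had -0.19 ± 0.09, Mt2 -0.62 ± 0.26 and Chgb 0.24 ± 0.08, and the 28 tested ER stress genes had a median of -0.10. Pdyn stood at 0.42 ± 0.34.

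**Figure D4:**
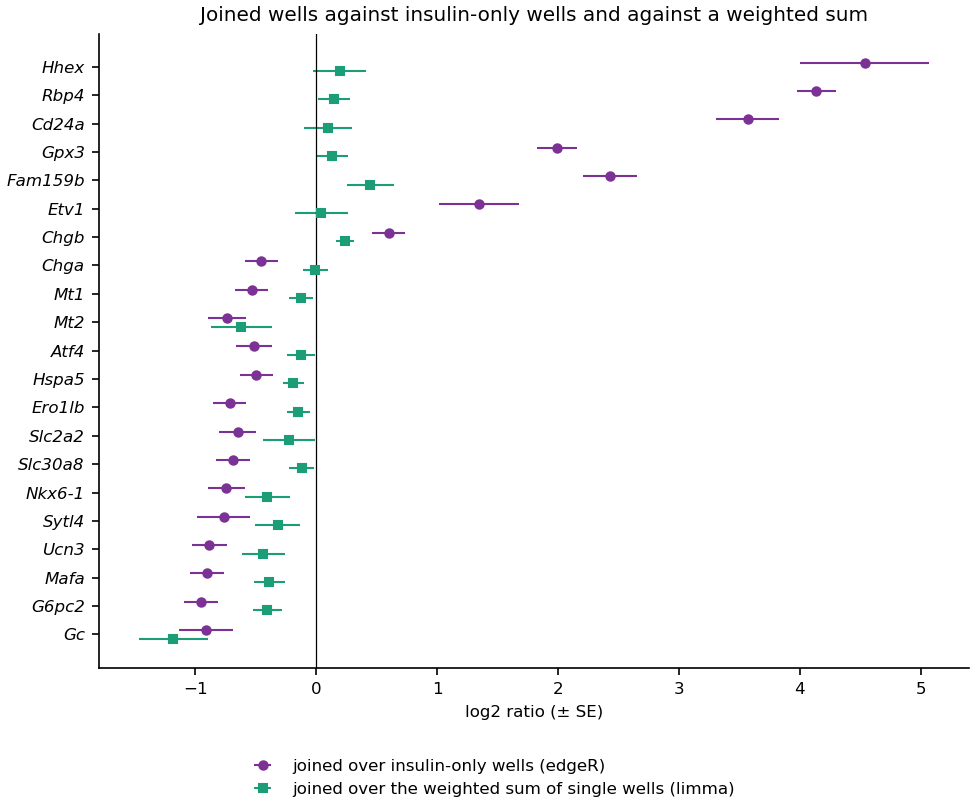
Log2 ratio ± SE (x axis, n = 6 plates) of 21 genes in joined wells over insulin-only wells (purple circles, edgeR) and over the weighted sum of both single classes (green squares, limma). Hhex and Rbp4 stand at 4.54 and 4.14 against insulin-only wells and at 0.19 and 0.15 against the sum, while Gc lies below 0 in both.

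The last comparison set joined wells after ppx against joined wells after sham. No gene of 1097 (0%) passed in edgeR over 3 plates each. Before adjustment 65 genes had p under 0.05, and by DESeq2 1 gene passed (Ppy). The plates of the 2 operations did not overlap for 115 genes (10.5%). The tomato-positive plates held 77 of the 88 ppx wells and 56 of the 87 sham wells, and 3 plates rest on 5 or 6 wells each.

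ER chaperone genes had higher values on ppx plates. Of 19 ER stress genes tested, 17 had a positive log2 fold change and 0 passed, with a median of 0.32 beside -0.01 over all genes, and for 11 of the 19 (57.9%) every ppx plate lay above every sham plate. Hspa5 averaged 2044 ± 464 CPM on ppx plates and 1397 ± 125 CPM on sham plates (SD, n = 3 each), a log2 fold change of 0.52 ± 0.19 (adjusted p = 0.744). Manf, a secreted factor of the ER stress response, had 825, 1054 and 1235 CPM on ppx plates and 592, 753 and 641 CPM on sham plates (0.55 ± 0.18, adjusted p = 0.744). Fkbp11, which encodes an ER-resident prolyl isomerase, had 189.8, 217 and 247 CPM on ppx plates and 100.5, 145 and 51.3 CPM on sham plates (0.93 ± 0.29, adjusted p = 0.744). Neither gene's plates overlapped between the operations, nor did those of Hsp90b1, an ER chaperone, at 0.55 ± 0.22. Between the tomato-positive plates alone the log2 ratio was 0.50 for Hspa5, 0.48 for Manf and 0.91 for Fkbp11. In insulin-only wells of the same plates Hspa5 stood at 2409, 2967 and 3290.1 CPM after ppx and 1751, 1659 and 1600.1 CPM after sham. The effect of the operation on Hspa5 was not shown to differ between the classes (interaction -0.32 ± 0.28, edgeR adjusted p = 1). In that test 3 genes (0.0558%) passed, all lower (0.0558%) and 0 higher.

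Maturity genes did not part by operation, with 9 of 20 positive, 0 passed and a median of -0.01. Mafa averaged 476 ± 125 CPM on ppx plates and 416 ± 80.6 CPM on sham plates (-0.01 ± 0.18). Ucn3 stood at 0.14 ± 0.20, G6pc2 at 0.47 ± 0.19, Rbp4 at -0.17 ± 0.19 and Hhex at 0.13 ± 0.34, none past the threshold. The granule gene Pcsk1n, which encodes proSAAS, had 1693, 1427 and 2099 CPM on ppx plates and 2229.9, 2433 and 2922 CPM on sham plates (-0.54 ± 0.19, adjusted p = 0.744), and Camk2n1, an inhibitor of CaM kinase II, stood at -0.53 ± 0.18. Dapl1 had 182, 1303 and 206 CPM on ppx plates and 97.8, 145 and 51.3 CPM on sham plates (1.83 ± 0.51, adjusted p = 0.592), with ppx 2 far above the rest. It rests on 202 UMIs in all joined wells, of which 1 well held 20.3%.

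Ppy had the smallest p of the genes outside the rule. Summed over wells it had 10682, 5675 and 14158 CPM on ppx plates and 18537, 28057 and 50649.8 CPM on sham plates, a log2 fold change of -1.70 ± 0.37 (edgeR adjusted p = 0.0823). Every sham plate lay above every ppx plate, but few wells carried the sums. The well with most Ppy held 22.1%, 23.0% and 33.1% of all Ppy UMIs of joined wells on ppx plates and 59.6%, 34.0% and 75.2% on sham plates. The median well had 0.746%, 0.648% and 1.82% Ppy on ppx plates and 0.576%, 0.988% and 1.77% on sham plates, values that overlap. Without the 5 joined wells over 10% Ppy the log2 fold change was -0.51 (adjusted p = 0.829).

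**Figure D5:**
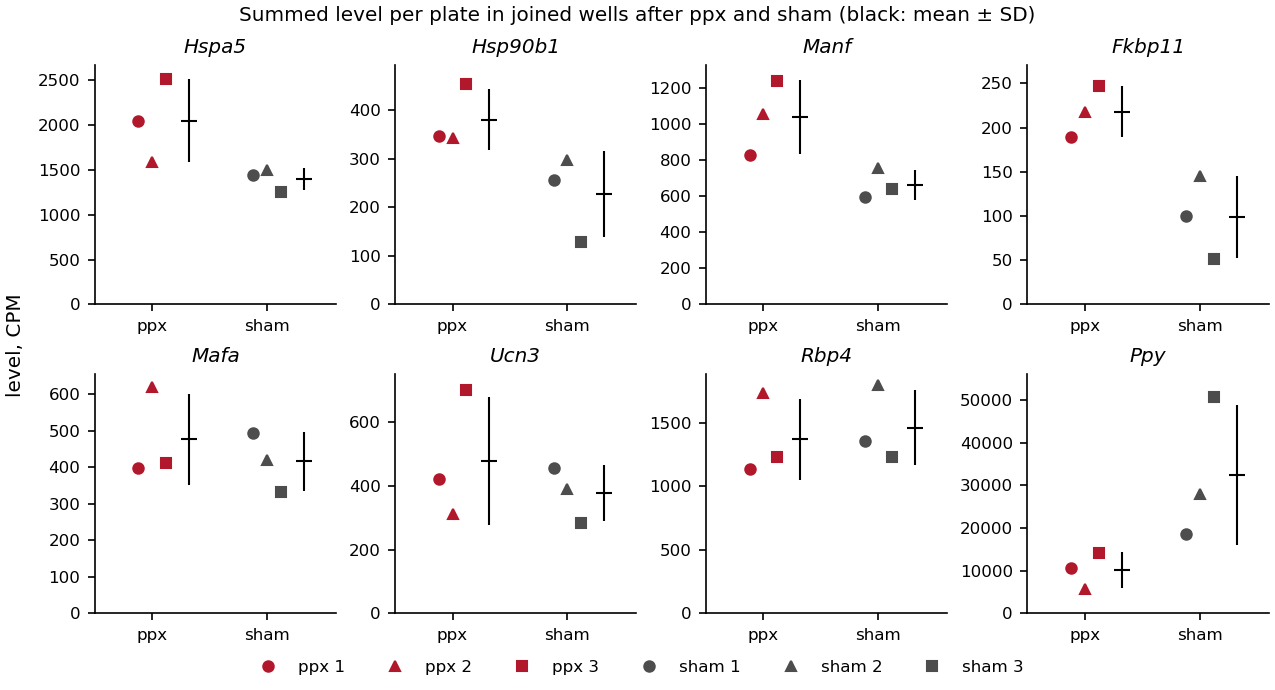
Level in CPM (y axis, linear from 0) of 8 genes in joined wells summed per plate, after ppx in red and after sham in grey, with the mean ± SD of 3 plates in black. Hspa5, Hsp90b1, Manf and Fkbp11 lie higher on all 3 ppx plates, Mafa, Ucn3 and Rbp4 overlap, and Ppy lies lower after ppx.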

How the data were processed

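MARS-seq UMI counts were measured on 6 plates, 3 per operation. The authors deposited raw UMI counts, 1 table for each plate with wells as columns, not normalised. The submitters' processing notes name HISAT 0.1.6 and the mm10 build. How reads were assigned to genes, and whether by strand, is not stated in the labels. Spike-in rows (3 UMIs in all) were dropped, and a well was kept from 500 UMIs and up to 20% mitochondrial UMIs (2115 of 2304). No doublets were removed, since wells with both hormones are the subject.

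UMIs were summed per plate and class (at least 5 wells) and fitted in R 4.3.3 by edgeR 4.0.16's quasi-likelihood test after TMM scaling and filterByExpr, with plate as a block between classes and with no block between operations. Ins1, Ins2, Sst and Gcg stayed in the totals and got no call. The adjusted p threshold was 0.05. Standard errors come from the F statistic. edgeR shares its estimate of spread across genes, and a p may be smaller than 1 gene's own plates would give. The Wald test of DESeq2 1.42.0 was an alternative. The beta fraction maximised a multinomial likelihood in steps of 0.005, without mitochondrial genes and 8 hormone genes. Joined wells were compared with the weighted sum by limma 3.58.1 on log2 ratios of CPM plus 10, for genes with a mean of at least 50 CPM. Plate values were tested by exact permutations or sign flips. Counts were simulated with 200 changed genes, a dispersion of 0.05 for every gene and no plate differences besides depth. In them the test of ppx against sham recovered 100% of 4-fold and 47.7% of 2-fold changes, and the interaction test 13.5% and 0%. Genes with a larger spread would be recovered less often.

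The wells, gene lists and comparisons were chosen with earlier results of these data known. Named genes are, per comparison and direction, up to 12 with the largest change among those past the threshold and alike on all plates, list members past the threshold or with the smallest p, and a fixed set of hormone and maturity genes. Where fewer than 10 passed per direction, others are given by unadjusted p. Gene positions come from GENCODE on GRCm38. The labels also number the plates 1 to 3 in both operations. Other thresholds, filters, scalings, tools and left-out plates were tried.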

Additional observations from a re-analysis of the deposited data

Results flagged for a closer look

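The effect of the operation differed between joined and insulin-only wells for 3 genes of 5377 (0.0558%), all with a lower ppx-to-sham ratio in joined wells, by a test of the interaction with plate as a block (edgeR, n = 6 plates). For Ppy the interaction was -2.77 ± 0.30 on the log2 scale (adjusted p = 3.46e-17). Joined wells had 10682, 5675 and 14158 CPM on ppx plates and 18537, 28057 and 50649.8 CPM on sham plates, while insulin-only wells had 5922, 4684 and 2671 CPM on ppx plates and 5493, 864 and 2051 CPM on sham plates. DESeq2 did not call Ppy, and without wells over 10% Ppy, a setting chosen after the data were seen, it stood at -1.24 (adjusted p = 0.371).

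For E130111B04Rik, an antisense transcript at chr11:102030268-102035084 on GRCm38, the chromosome that also holds Ppy and Pyy, the interaction was -3.89 ± 0.49 (edgeR adjusted p = 7.09e-12). It had 107, 372 and 288 CPM on ppx plates and 144, 152 and 1077 CPM on sham plates in joined wells, against 99.6, 304 and 80.2 CPM on ppx plates and 28.1, 5.92 and 39.6 CPM on sham plates in insulin-only wells. Single wells held much of its UMIs: 29.8%, 50% and 57.1% in joined wells of ppx plates and 69.8%, 28.6% and 73.8% on sham plates, and in insulin-only wells 54.5%, 36.7% and 75.8% on ppx plates and 50%, 20% and 57.9% on sham plates. Without wells over 10% Ppy it stood at -2.42 (adjusted p = 0.371). Its reads cannot be told apart from those of an overlapping gene where strand was not used.

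For Malat1, a long nuclear RNA, the interaction was -2.80 ± 0.65 (edgeR adjusted p = 0.0321). The call was lost in 7 of 13 alternatives, and of the 3 genes 0 passed in every alternative. In joined wells it had 45.1, 0 and 41.2 CPM on ppx plates and 81.5, 167 and 308 CPM on sham plates, and 1 well held 87.0% of its UMIs on sham 2 and 75% on sham 3. In insulin-only wells it had 72.4, 49.9 and 125 CPM on ppx plates and 42.2, 48.5 and 65.7 CPM on sham plates.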

How the results depend on the processing

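Depth limits the joined wells of ppx 2, ppx 3 and sham 3 most, with 5 or 6 wells each. Against insulin-only wells 98 genes passed, against 61 with DESeq2, 11 with tomato-positive plates only and 45 (without sham replicate 2) to 100 with 1 plate left out. In the other 7 alternatives the count stayed within 1.5 times, 9 genes passed in all 15 alternatives (Rbp4, Pyy, Ppy, Cd24a, Gpx3, Arg1, Fam159b, Clu and Dbpht2), and none of the named genes past the threshold changed sign. Against somatostatin-only wells 463 genes passed, against 269 with DESeq2, 278 with no replicate block and 170 to 606 with 1 plate left out, which changes the number tested. The weighted sum gave 0 genes in all 10 alternatives.

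Between ppx and sham joined wells 0 genes passed, against 1 with DESeq2, 3 with no filter, 4 with tomato status as a covariate, 4 with a replicate block, and 0 to 4 with 1 plate left out (1, 3 and 4 without ppx replicate 1, 2 and 3, and 2 without sham replicate 2). Ppy passed in 8 of 14 alternatives and Dapl1 in 4. The interaction gave 3 genes, against 1 with DESeq2, 1 without wells over 10% Ppy, 8 with a replicate block and 2 to 6 (without ppx replicate 1) with 1 plate left out. Malat1 lost its call in 7 of 13 alternatives. The deviations of same-numbered plates of both operations had correlations of 0.0624, 0.00277 and -0.0231. With 3 plates per operation and few wells on some, these cannot show whether the numbers pair plates. Both plates numbered 1 were tomato-positive and both numbered 3 tomato-negative.

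The ppx minus sham difference in beta fraction turned positive with marker genes only (0.055), profiles of all plates (0.00583), plate means (0.0369) and tomato-positive plates only (0.025), and ran from -0.0371 to 0.0342 with 1 plate left out. The positive minus negative difference turned to -0.0208 with marker genes only. Of the named genes past no threshold, 5 of 11 against insulin-only wells, 14 of 56 against the weighted sum and 11 of 55 between operations changed sign in at least 1 alternative. The causes were not tested. Settings without wells over 10% Ppy, and with or without the tomato-positive plates, were added after the data were seen.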
